A study of Homo sapiens with 4 samples.

Results

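Major histocompatibility complex (MHC) class I molecules display peptides from inside the cell to CD8 T cells and natural killer cells. A heavy chain pairs with beta-2 microglobulin, the peptide is pumped into the endoplasmic reticulum by the TAP1 and TAP2 transporter, and tapasin (TAPBP) holds the empty molecule at the transporter until a peptide binds. NLRC5 is the class I transactivator: it binds no DNA itself and is recruited to class I promoters through RFX, CREB/ATF and NF-Y proteins. In epithelial cells the whole pathway is known to be inducible by interferon. The 9 genes described here were chosen by name, without a threshold on their values but with earlier results of these data known. They are the heavy chains HLA-B, HLA-C, HLA-E and HLA-F, the light chain B2M, the loading genes TAP1, TAP2 and TAPBP, and NLRC5. All 9 were among the 40205 symbols of the count table, and all 9 were among the 16120 genes with enough counts to be tested.

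RNA-seq counts came from A549 cells, an established human line grown from a lung adenocarcinoma, 24 h after transfection of small interfering RNA (siRNA) with a lipid reagent. In 2 libraries, Knockdown-670 and Knockdown-732, the siRNA targeted the long non-coding RNA SBF2-AS1, which is antisense to SBF2; in the other 2, NC-1 and NC-2, it was a negative control siRNA. All groups were transfected, and untransfected cells were not analysed here. The labels do not say whether the numbers in the knockdown names mark different siRNAs, nor whether the libraries of a group came from separate cultures. The p-values therefore reflect the spread among these libraries alone, which may be technical.

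The libraries held 12149767 to 12938143 counts. SBF2-AS1 had 15 and 18 counts in Knockdown-670 and Knockdown-732, against 57 and 79 in NC-1 and NC-2, or -1.94 on the log2 scale (edgeR adjusted p = 3.19e-05, SE 0.30). The labelled cell type was checked against its markers. All 7 epithelial and A549 markers were present. They summed to 4670 to 4835 CPM in the knockdown and 7984 to 7994 CPM in the controls. In edgeR 5 of the 7 were called lower and 1, KRT19, higher, against 22.8% lower and 23.5% higher over all tested genes. Of the leukocyte markers, CD3E and NKG7 had no count in any library, and PTPRC had 1 count over all libraries. CD14 had 8.66 and 9.61 CPM in the knockdown, against 12.1 and 9.90 CPM in the controls, and ITGAM averaged 5.66 ± 0.646 CPM in the knockdown and 5.28 ± 0.842 CPM in the controls (SD, n = 2 each); neither passed the test. The leukocyte list summed to 175 to 196 CPM in the knockdown and 72.5 to 74.5 CPM in the controls, most of it CD68, a lysosomal protein, at 160 to 181 CPM in the knockdown and 56.6 to 57.8 CPM in the controls. The 4 endothelial markers summed to 1.27 and 2.36 CPM in Knockdown-670 and Knockdown-732, against 3.02 and 3.17 CPM in NC-1 and NC-2. The 5 fibroblast markers, mostly COL1A1, summed to 13.6 and 11.1 CPM in the knockdown, against 10.7 and 10.1 CPM in the controls. No tested gene of these 2 lists was called in edgeR. The part of all these markers in the results was not tested. Of the genes of professional antigen-presenting cells, HLA-DRA and CD86 had no count in any library, and the 6 genes of that list summed to 5.12 to 6.45 CPM in the knockdown and 3.55 to 4.64 CPM in the controls.

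All 9 class I and loading genes were higher with the siRNA to SBF2-AS1, from 1.36-fold for TAP2 to 5.26-fold for NLRC5. Each was called at 0.05 after adjustment over all genes (edgeR, quasi-likelihood), and in each both knockdown libraries lay above both controls. The background was high: 46.3% of all tested genes were called in either direction and 23.5% were called higher, and in 36.4% of them both knockdown libraries lay above both controls. At least a 2-fold rise was called for 6 of the 9 and for 5.57% of all tested genes. The median log2 fold change was 1.10 over the 9 genes and -0.002 over all tested genes, whose interquartile range ran from -0.35 to 0.36. In bulk RNA, more RNA per cell and a larger share of cells expressing a gene cannot be told apart.

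The bases before the transcription starts are shown because the genes moved together and their promoters are known to share control elements. RefSeq promoters on GRCh38.p14 (250 bases before to 50 after each start) matched 7 of the 9 genes: HLA-B, HLA-C, HLA-F, B2M, TAP1, TAP2 and TAPBP. TAP1 has 2 entries, and the counts below use the upstream one; the other, chr6:32852712-32853011 on the minus strand, held no match of any motif searched. A script searched both strands for the interferon-stimulated response element (ISRE) GAAANNGAAA, the shorter interferon regulatory factor (IRF) core AANNGAAA that every ISRE match contains, a kappaB motif GGGNNTNNCC, the CREB/ATF half-site TGACG and the NF-Y box CCAAT. Capitals mark every match of these motifs on either strand, and overlapping matches run together.

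The 3 heavy chains are given from base -180 to base -41 from the start. HLA-B is at chr6:31357220-31357359 on the - strand, HLA-C at chr6:31272133-31272272 on the - strand and HLA-F at chr6:29723254-29723393 on the + strand.
HLA-B: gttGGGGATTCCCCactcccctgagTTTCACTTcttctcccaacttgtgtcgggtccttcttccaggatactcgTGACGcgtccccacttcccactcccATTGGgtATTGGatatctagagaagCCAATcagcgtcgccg
HLA-C: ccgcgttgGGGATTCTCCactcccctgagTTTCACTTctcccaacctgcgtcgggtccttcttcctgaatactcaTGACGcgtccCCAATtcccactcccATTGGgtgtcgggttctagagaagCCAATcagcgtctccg
HLA-F: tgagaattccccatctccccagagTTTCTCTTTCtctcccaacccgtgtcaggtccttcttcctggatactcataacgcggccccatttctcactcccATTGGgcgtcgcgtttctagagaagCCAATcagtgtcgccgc

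B2M is given from base -150 to -41 (chr15:44711367-44711476, + strand), TAP1 from base -140 to -46 (chr6:32853750-32853844, - strand), TAP2 from base -80 to -31 (chr6:32838770-32838819, - strand) and TAPBP from base -60 to -1 (chr6:33314079-33314138, - strand), windows that hold the ISRE matches.
B2M: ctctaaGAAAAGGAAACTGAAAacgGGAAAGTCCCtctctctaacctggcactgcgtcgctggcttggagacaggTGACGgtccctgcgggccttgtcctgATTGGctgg
TAP1: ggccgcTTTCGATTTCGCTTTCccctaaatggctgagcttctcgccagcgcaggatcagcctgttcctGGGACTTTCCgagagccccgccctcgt
TAP2: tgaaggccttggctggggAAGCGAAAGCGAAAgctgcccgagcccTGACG
TAPBP: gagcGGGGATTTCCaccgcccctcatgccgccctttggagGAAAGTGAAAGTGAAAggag

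The ISRE letters were found in 5 of the 7 promoters (HLA-F, B2M, TAP1, TAP2 and TAPBP), against 3.57% of all 35116 RefSeq promoters of that length. HLA-B and HLA-C held the shorter IRF core, TTTCACTT on the strand shown, at the place where HLA-F held a full match. That core was in 7 of the 7 promoters used, not in the other TAP1 entry, and in 22.8% of all promoters. The kappaB letters were in 5 of the 7 and in 22.0% of all promoters; HLA-F and TAP2 had none in this window. TGACG was in 4 of the 7 (HLA-B, HLA-C, B2M and TAP2) and in 24.6% of all, and CCAAT was in 5 of the 7 (HLA-B, HLA-C, HLA-F, B2M and TAP1) and in 34.6% of all. A match describes letters only. TAP2, with 1 ISRE match, had the smallest fold change of the 9 genes. HLA-B, with no ISRE match, was exceeded only by HLA-F and by NLRC5, for which no promoter was searched. The relation of motif matches to fold changes was not tested.

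**Figure D1:**
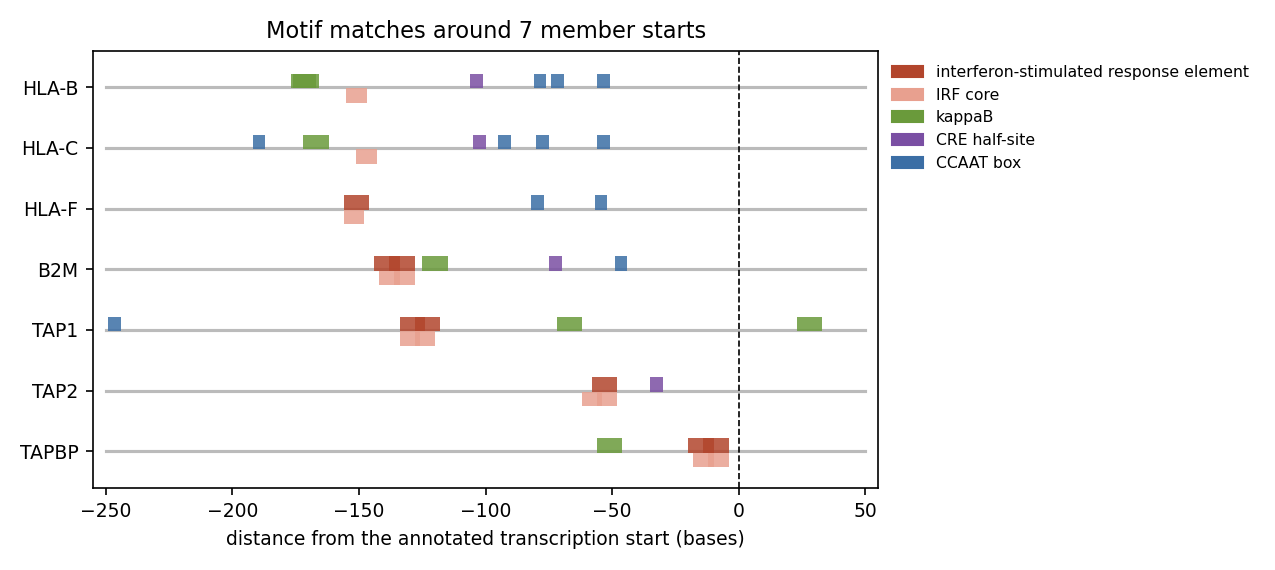
Motif matches on either strand in the 7 RefSeq promoters, drawn against distance from the annotated start in bases (dashed line at the start). ISRE matches, in dark red, are seen in HLA-F, B2M, TAP1, TAP2 and TAPBP, and HLA-B and HLA-C carry only the IRF core, in pale red.

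NLRC5, the transactivator, rose most. It had 43.9 and 42.2 CPM (library-size scaled counts with trimmed-mean, TMM, factors) in Knockdown-670 and Knockdown-732, against 8.35 and 8.01 CPM in NC-1 and NC-2. The libraries of each group lay close together and the groups were far apart: the lower knockdown library stood 5.06-fold above the higher control. The means were 43.1 ± 1.18 CPM in the knockdown and 8.18 ± 0.240 CPM in the controls (SD, n = 2 each), and the log2 fold change was 2.39 (edgeR adjusted p = 3.69e-11, SE 0.13). NLRC5 ranked 88th by fold change among all tested genes, so that 0.54% of them had a larger rise. Its lowest and highest count were 106 and 536, and the 95% Poisson intervals (exact, for counting error alone) ran from 40.2 to 47.9 and from 38.7 to 46.0 CPM in the knockdown, against 6.85 to 10.1 and 6.56 to 9.69 CPM in the controls. On GRCh38 the gene lies on chromosome 16, from 56989485 to 57083531 on the + strand. Its longest protein-coding transcript shared no 50-base stretch with another annotated gene.

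Of the 4 heavy chains followed here, HLA-F, a non-classical chain with low surface expression in most tissues, was the scarcest and rose most. It had 16.5 and 17.3 CPM in Knockdown-670 and Knockdown-732, against 3.40 and 4.61 CPM in NC-1 and NC-2, from 194, 219, 44 and 61 counts in that order. The controls differed from each other by 0.44 on the log2 scale, far less than the difference between groups. The log2 fold change was 2.07 (edgeR adjusted p = 2.97e-08, SE 0.18), or 4.198-fold. HLA-F lies on chromosome 6 from 29722775 to 29738528 on the + strand and shares 535 exonic bases with HLA-F-AS1 on the opposite strand. The antisense gene had only 8 and 4 counts in the knockdown and 12 and 6 in the controls.

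HLA-B, a classical chain that presents peptides to CD8 T cells, had 125 and 123 CPM in Knockdown-670 and Knockdown-732, against 38.6 and 33.6 CPM in NC-1 and NC-2. The groups did not overlap, and the knockdown libraries were closer to each other than the controls were. The log2 fold change was 1.78 (edgeR adjusted p = 1.1e-11, SE 0.08), or 3.44-fold. HLA-C, the classical chain that is also the main ligand of killer-cell immunoglobulin-like receptors, had 141 and 143 CPM in the knockdown, against 54.8 and 59.9 CPM in the controls. Both knockdown libraries were again above both controls, and the difference was 1.31 on the log2 scale (edgeR adjusted p = 1.64e-10, SE 0.08), or 2.47-fold.

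HLA-E, which carries leader peptides of other class I chains to the natural killer receptor NKG2A, was the most abundant of the 4 chains and rose least. It had 262 and 263 CPM in Knockdown-670 and Knockdown-732, against 152 and 138 CPM in NC-1 and NC-2. The knockdown libraries were nearly equal, and the lower of them stood 1.73-fold above the higher control. The log2 fold change was 0.86 (edgeR adjusted p = 1.59e-08, SE 0.07), or 1.81-fold.

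Class I genes are near copies of each other and highly polymorphic, so reads may be exchanged among them, and A549 alleles may differ from the reference. Windows of 50 bases were taken from the longest protein-coding GENCODE transcript of each chain. Of these windows, 2.54% of HLA-B, 6.71% of HLA-C, 5.13% of HLA-E and 1.70% of HLA-F also occurred in another gene. How the authors' counting treated such reads is not stated. As annotated on GRCh38, HLA-B spans 31269491 to 31357188 and HLA-C 31268749 to 31272130 on the - strand of chromosome 6. These spans overlap, with 35 exonic bases shared. HLA-B also shares 542 with the pseudogene AL671883.2 on the opposite strand, and its longest transcript is 1547 bases. HLA-E spans 30489467 to 30494205 on the + strand of chromosome 6.

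**Figure D2:**
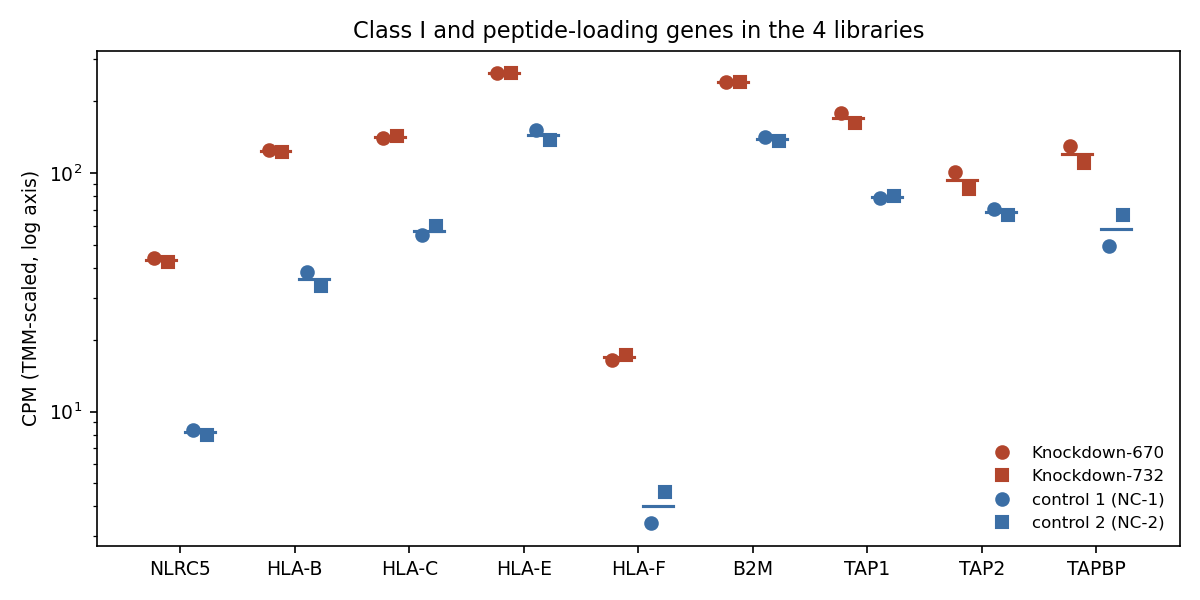
TMM-scaled CPM on a log axis for the 9 genes, with 1 point per library and a line at each group's mean; Knockdown-670 and Knockdown-732 are in red and NC-1 and NC-2 in blue. In every gene both red points lie above both blue points, with the widest gap for NLRC5 (43.1 against 8.18 CPM on average) and the narrowest for TAP2 (93.7 against 68.7 CPM).

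The unequal rises changed the composition of the heavy-chain counts. HLA-E made up 48.1% of the summed counts of the 4 chains in both Knockdown-670 (Wilson 95% interval 46.9 to 49.4%) and Knockdown-732 (46.9 to 49.3%), against 61.0% (59.3 to 62.7%) in NC-1 and 58.4% (56.7 to 60.1%) in NC-2. HLA-B made up 23.0% (22.0 to 24.0%) and 22.6% (21.6 to 23.6%) in the knockdown, against 15.5% (14.3 to 16.8%) and 14.3% (13.1 to 15.5%) in the controls. HLA-E thus took a smaller share and HLA-B a larger one in both knockdown libraries, with intervals that did not overlap between groups. The HLA-F share was 3.02 and 3.16% in the knockdown, against 1.37 and 1.95% in the controls. The HLA-C share was 25.8 and 26.1% in the knockdown, against 22.1 and 25.4% in the controls, and there the intervals of NC-2 and of both knockdown libraries overlapped. The intervals cover counting error only, and with 2 libraries against 2 an exact two-sided permutation test cannot give a p below 0.3333, so these shares are described and not tested.

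B2M, the light chain with which class I heavy chains pair, had 242 CPM in both Knockdown-670 and Knockdown-732, against 142 and 137 CPM in NC-1 and NC-2. Each group was tight and the groups did not overlap. The log2 fold change was 0.80 (edgeR adjusted p = 2.43e-08, SE 0.07), or 1.74-fold, next to that of HLA-E and below those of the other 3 chains. Summed over the 4 heavy chains there were 2.25 counts per B2M count in each knockdown library, against 1.75 in NC-1 and 1.73 in NC-2. B2M lies apart from the other chains, on chromosome 15 from 44711487 to 44718877 on the + strand. Its longest protein-coding transcript shared no 50-base window with another gene.

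**Figure D3:**
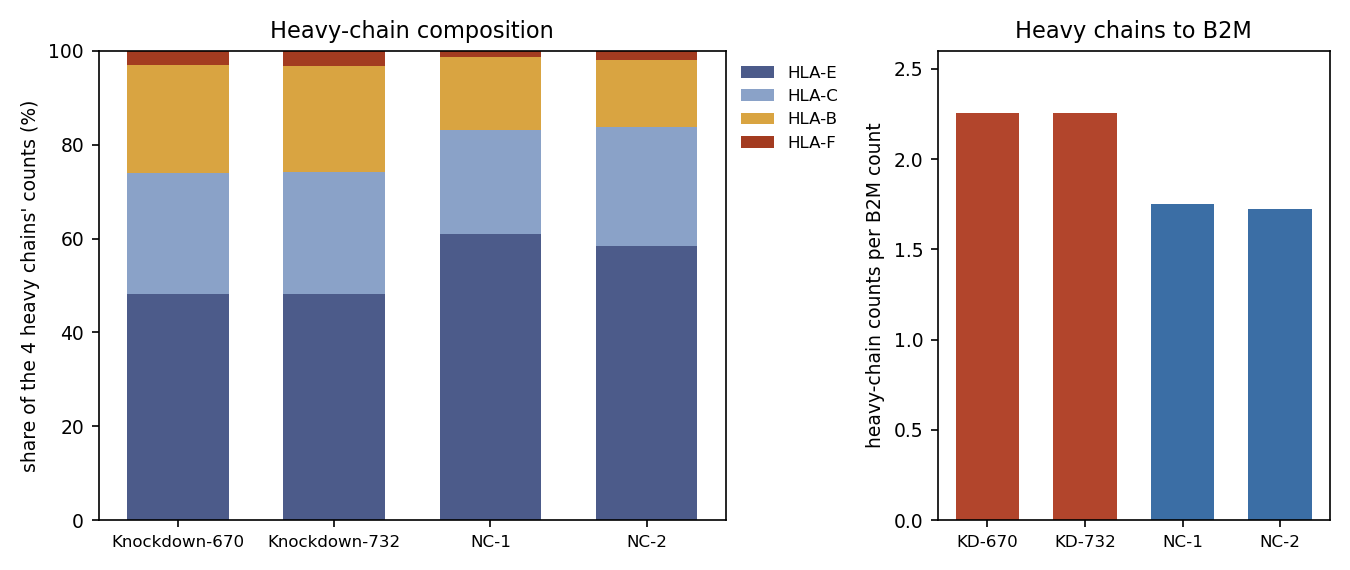
Left, share of the summed HLA-E, HLA-C, HLA-B and HLA-F counts taken by each chain in each library, in percent; right, counts of the 4 chains per B2M count, on an axis from 0. The HLA-E share is 48.1% in both knockdown libraries against 61.0 and 58.4% in the controls, and the ratio to B2M is 2.25 in both against 1.75 and 1.73.

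The transporter subunits rose unequally. TAP1, an ATP-binding transporter subunit, had 178 and 162 CPM in Knockdown-670 and Knockdown-732, against 78.5 and 79.96 CPM in NC-1 and NC-2. Its groups were well apart, and the log2 fold change was 1.10 (edgeR adjusted p = 1.15e-09, SE 0.07), or 2.15-fold. TAP2, the partner with which TAP1 forms the heterodimer, had 102 and 85.9 CPM in the knockdown, against 70.8 and 66.7 CPM in the controls. Knockdown-732 was 0.24 below Knockdown-670 on the log2 scale and stood only 1.21-fold above the higher control. The log2 fold change of TAP2 was 0.45 (edgeR adjusted p = 0.000364, SE 0.09), or 1.36-fold, a rise exceeded by 20.5% of all tested genes. There were 1.75 and 1.89 TAP1 counts per TAP2 count in the knockdown, against 1.11 and 1.1995 in the controls, a ratio that did not overlap between groups and was not tested.

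TAP1 lies from 32845209 to 32853978 and TAP2 from 32821833 to 32838780, both on the - strand of chromosome 6. TAP2 shares 2064 exonic bases with AL669918.1, another protein-coding gene annotated on its own strand. Of the 50-base windows of TAP2, 35.8% also occur in this overlapping gene and 0.55% in TAP1. TAP1 shares 456 with PSMB8-AS1 on the opposite strand. Under these names neither AL669918.1 nor PSMB8-AS1 was among the symbols counted. PSMB9, an immunoproteasome subunit, starts 488 bases from TAP1 in RefSeq and is transcribed the other way. It had 13.3 and 10.1 CPM in the knockdown, against 7.11 and 4.99 CPM in the controls, or 0.95 on the log2 scale (edgeR adjusted p = 0.000781, SE 0.20).

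TAPBP (tapasin), the chaperone that bridges TAP and the heavy chain and edits the bound peptide, had 130.4 and 110.1 CPM in Knockdown-670 and Knockdown-732, against 49.4 and 67.0 CPM in NC-1 and NC-2. Its libraries were the least alike of the 9 genes, with the controls 0.44 and the knockdown libraries 0.24 apart on the log2 scale, yet the groups did not overlap. The log2 fold change was 1.05 (edgeR adjusted p = 0.00158, SE 0.15), or 2.06-fold. The gene spans 33299694 to 33314387 on the - strand of chromosome 6, and 5.99% of its 50-base windows occurred in other genes.

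**Figure D4:**
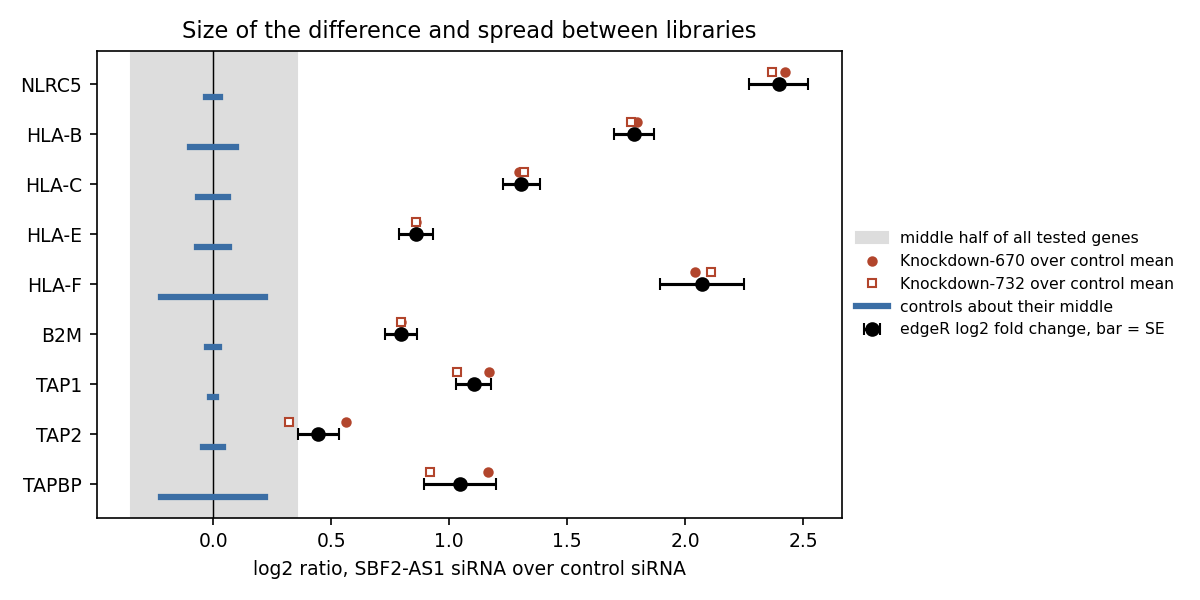
edgeR log2 fold change with its SE (black), the log2 ratio of each knockdown library to the control mean (red) and the distance between the controls drawn about 0 (blue), with the interquartile range of all tested genes in grey. All 9 genes lie to the right of the grey band, from TAP2 at 0.45 to NLRC5 at 2.39; the single-library ratio of TAP2 in Knockdown-732, at 0.32, falls inside it.

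By library, the ratio to the control mean was nearly the same in both knockdown libraries for NLRC5 and the chains: on the log2 scale 2.42 in Knockdown-670 and 2.37 in Knockdown-732 for NLRC5, 1.80 and 1.77 for HLA-B, 1.30 and 1.32 for HLA-C, 0.86 in both for HLA-E, 2.04 and 2.11 for HLA-F and 0.80 in both for B2M. For the loading genes Knockdown-670 was the higher one: 1.17 against 1.03 in Knockdown-732 for TAP1, 0.56 against 0.32 for TAP2 and 1.16 against 0.92 for TAPBP. With 1 library each this was not tested.

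Levels were compared between genes per kb of merged annotated exon. HLA-E was highest, with 88.2 ± 0.0784 CPM per kb in the knockdown and 48.6 ± 3.27 in the controls (SD, n = 2 each). In the knockdown HLA-C (56.6 ± 0.516), HLA-B (40.7 ± 0.503), B2M (39.8 ± 0.0337), TAP1 (35.4 ± 2.34), TAPBP (23.8 ± 2.85), TAP2 (14.7 ± 1.73), HLA-F (3.88 ± 0.128) and NLRC5 (3.48 ± 0.0951) followed, all in CPM per kb. In the controls B2M (22.9 ± 0.608) and HLA-C (22.9 ± 1.42) did not differ beyond their spread, nor did HLA-B (11.8 ± 1.15), TAPBP (11.5 ± 2.46) and TAP2 (10.8 ± 0.460). Several places rest on the length used. With the longest annotated transcript, B2M, at 2.40 kb in place of 6.08 kb, stood at 101 CPM per kb in the knockdown, level with HLA-E at 101, and at 58.0 against 55.6 in the controls. HLA-B, at 1.55 kb in place of 3.05 kb, then stood above HLA-C in the knockdown (80.3 ± 0.992 against 75.4 ± 0.688 CPM per kb). In the controls it stood at 23.3 ± 2.26, above TAPBP at 15.5 ± 3.30 and TAP2 at 12.1 ± 0.518. HLA-F and NLRC5 were lowest under both lengths.

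Among 11896 other genes averaging 5 CPM or more, those named here whose log2 levels over the 4 libraries lay nearest to NLRC5 (Euclidean distance of deviations from each gene's mean) were OAS3 at a distance of 0.043, XDH at 0.11, PTPRN2 at 0.14 and HERC5 at 0.15. OAS3 had 675 CPM in the knockdown and 130 CPM in the controls on average, and HERC5 had 48.4 and 8.53 CPM in the same groups. Nearest to B2M were SLC35E2 at 0.018, CIB1 at 0.020, LOC100506714 at 0.028 and RALGDS at 0.030. With 4 libraries such a list largely collects genes of a like fold change.

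The proteins around the 9 genes were read from lists. Of 21 tested regulators of class I transcription, 6 rose and 8 fell, against 23.5% higher and 22.8% lower over all tested genes, and the median of the list was -0.07 on the log2 scale. Those that rose most belong to interferon signalling: IRF7 had 63.4 and 62.5 CPM in Knockdown-670 and Knockdown-732, against 8.89 and 7.41 CPM in NC-1 and NC-2 (7.72-fold, edgeR adjusted p = 1.47e-12). The interferon signal transducers STAT2 and IRF9 rose 3.97-fold and 2.27-fold. IRF1, which binds class I promoters directly, rose 1.48-fold, and the NF-kB subunit RELA 1.48-fold. Several partners through which NLRC5 reaches DNA were lower: RFX5 had 67.8 and 71.6 CPM in the knockdown, against 90.1 and 89.0 CPM in the controls (log2 -0.36), NFYC fell by 0.44, NFYB by 0.34 and the CREB-family factor ATF1 by 0.72 on the log2 scale. IRF2 fell by 0.79, and the acetyltransferase KAT2B, the NLR chaperone SUGT1 and NFKB1 also fell. RFXAP, RFXANK, NFYA and CREB1 did not pass, with log2 fold changes of 0.20, 0.02, -0.07 and 0.13. Tested against a 1.2-fold change, 3 in place of 8 were lower.

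Of 18 tested chaperones, translocon subunits and trimming peptidases, 7 rose and 2 fell, which sets 9 of 18 called beside 46.3% of all tested genes, and the median of the list was 0.13 on the log2 scale. LAP3, a cytosolic aminopeptidase, had 45.3 and 43.7 CPM in Knockdown-670 and Knockdown-732, against 26.2 and 24.3 CPM in NC-1 and NC-2 (log2 0.82, edgeR adjusted p = 3.13e-06). ERAP2, which trims peptides in the endoplasmic reticulum, rose 2.06-fold to 6.88 and 6.70 CPM in the knockdown, against 3.09 and 3.48 CPM in the controls, and its relative ERAP1 rose 1.24-fold. The loading chaperone CALR rose by 0.38 and the translocon subunit SEC61A1 by 0.48 on the log2 scale, while CANX, PDIA3 and the tapasin relative TAPBPL did not pass, at 0.13, 0.09 and -0.05. The cytosolic peptidases TPP2 (log2 -0.32) and BLMH (-0.31) fell. The count of 2 lower became 0 without NC-1 and 0 without Knockdown-670, and 12 in place of 7 rose once GC content and length were corrected for.

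Of the 5 immunoproteasome and activator genes 4 rose: PSMB9 above, PSMB8 (log2 0.38), PSME1 (0.59) and PSME2 (0.43). PSMB10 did not pass (0.16). In DESeq2 and in glmTreat against 1.2-fold, 3 rose. Over all tested genes 23.5% were called higher and 22.8% lower in edgeR. Of the constitutive catalytic subunits that the immunoproteasome replaces, PSMB5 (log2 -0.25) and PSMB6 (-0.25) fell and PSMB7 (0.32) rose. For PSMB7 both knockdown libraries lay above both controls, as they did in 36.4% of all tested genes. For PSMB5 and PSMB6 both lay below both controls, and the share of all tested genes in that direction was not counted. Without NC-1 or without Knockdown-732, 0 were called lower in edgeR, and without NC-2, 0 were called higher.

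Among other class I and class I-like chains, 8 of 15 tested rose. Over all tested genes 23.5% were called higher and 46.3% in either direction. The median of the list was 0.63 on the log2 scale. In the other direction 0 passed in edgeR, DESeq2 or limma-voom, and 1 had an unadjusted edgeR p under 0.05. MICB, a stress ligand of the NKG2D receptor, had 18.9 and 17.8 CPM in Knockdown-670 and Knockdown-732, against 10.1 and 7.94 CPM in NC-1 and NC-2 (log2 1.02, edgeR adjusted p = 2.45e-05). Its neighbour MICA had 28.6 and 25.8 CPM in the knockdown, against 31.1 and 27.5 CPM in the controls, and did not pass (log2 -0.11, edgeR adjusted p = 0.479). FCGRT, the heavy chain of the neonatal Fc receptor, rose 1.47-fold. HLA-G was scarce, with 34 and 34 counts in the knockdown, against 5 and 10 in the controls (log2 2.26, edgeR adjusted p = 0.000208, SE 0.41), and shares sequence with its relatives. Without NC-2 there was 1 lower member, and without Knockdown-670 there were 2.

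Most genes of class II presentation had few or no counts. Of 15 listed, 4 had enough counts to be tested, and HLA-DRA, HLA-DPB1 and HLA-DQB1 had no count in any library. CIITA, the class II counterpart of NLRC5, had 1 and 3 counts in Knockdown-670 and Knockdown-732 and 0 in both controls, and the invariant chain CD74 had 8 and 4 against 1 and 0. The peptide exchange chains HLA-DMB (log2 -0.73) and HLA-DMA (-0.53) fell, the protease CTSS rose by 0.37, and the thiol reductase IFI30 did not pass (0.19). These calls, 1 higher and 2 lower of 4 tested, stand beside 23.5% higher and 22.8% lower over all tested genes. There was 1 lower gene without NC-1, without Knockdown-670 and without Knockdown-732, and none was higher without NC-2.

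**Figure D5:**
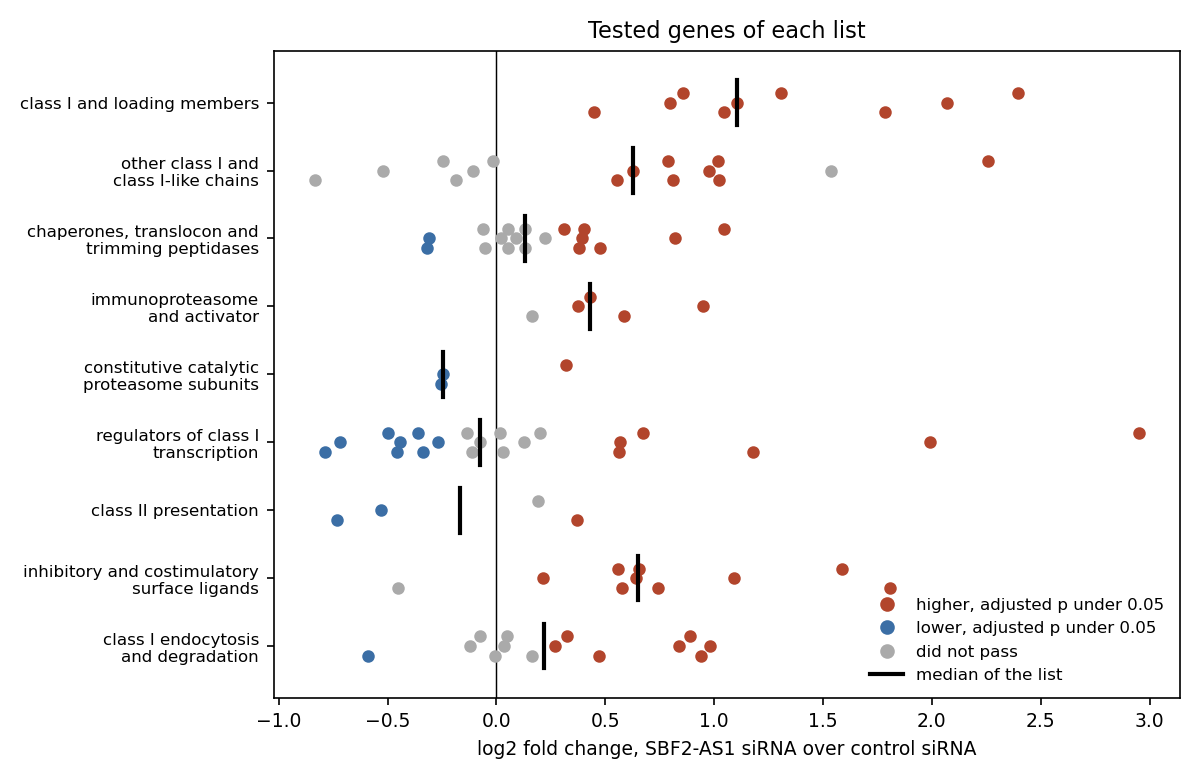
edgeR log2 fold change of every tested gene of the 9 lists, 1 point per gene, coloured by its call, with a bar at each list's median. The class I and loading genes are all called higher (median 1.10), while the regulators of class I transcription lie on both sides of 0 (6 higher, 8 lower, median -0.07).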

How the data were processed

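The authors deposited raw counts per gene symbol, 1 column per library, per the file headers; they were used as they stood. Per the labels' protocols, RNA was extracted with Trizol, checked for integrity and read on an Ion Proton instrument. The build was GRCh37, per the submitters' processing notes; aligner, counter, annotation and strand use: not given in the sources used here. No entry lacked a gene name, and 0 columns belonged to no sample.

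Groups came from the sample titles. No replicates were duplicates: their chi-square per gene was 3.57 (knockdown) and 3.89 (controls), above counting noise. edgeR's coefficient of variation between libraries, beyond counting noise, was 6.64% at 12149767 to 12938143 counts a library.

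edgeR 4.0.16 in R 4.3.3 was run on all genes after filterByExpr and TMM scaling, with robust quasi-likelihood fits and Benjamini-Hochberg adjustment at 0.05. SE was taken as |log2 fold change| over the root of F. The scripts were tested on simulated data. Alternatives tried were other scalings (library size only, upper quartile, DESeq2's size factors), other filters (none, or 5 CPM in 2 libraries), each library left out, other tests (DESeq2 1.42.0, limma-voom 3.58.1, glmTreat against 1.2-fold, a fit without robust priors), and a lowess correction for GC content and length.

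Coordinates, lengths and shared windows are from GENCODE v29 and promoters from RefSeq, both on GRCh38, joined by symbol (28573 directly, 1297 by synonym, 10335 not matched), since the table holds no coordinates. Shared windows were sought for the longest protein-coding transcript of each of the 9 genes only. The genes and lists were chosen with earlier results of these data known. Named genes were the 9 members, SBF2-AS1, up to 4 called genes of smallest p per list, exceptions within lists, and the nearest profiles to NLRC5 and B2M; others in the lists were named after their values were seen. Some genes taken by this rule are not reported here.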

Additional observations from a re-analysis of the deposited data

How the results depend on the processing

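All 9 class I and loading genes stayed higher and past an adjusted p of 0.05 in each of 14 alternatives, with log2 fold changes of 2.06 to 2.42 for NLRC5, 1.86 to 2.30 for HLA-F, 1.68 to 1.88 for HLA-B, 1.15 to 1.37 for HLA-C, 0.78 to 0.92 for HLA-E, 0.73 to 1.09 for B2M, 0.94 to 1.16 for TAP1, 0.83 to 1.28 for TAPBP and 0.32 to 0.55 for TAP2. The largest adjusted p was 0.0253, for TAP2. Over all tested genes 2451 were higher and 2229 lower in glmTreat, against 3785 and 3678 in edgeR's test of no change, as that test asks for a larger change. With library size only, 43.2% of calls were higher in place of 50.7%. The larger moves in the counts for the lists are given below, and smaller ones also occurred. In DESeq2, for example, 5 in place of 7 endocytosis and degradation genes were higher. So were 8 in place of 9 surface ligands and 3 in place of 4 immunoproteasome and activator genes. The cause of these moves was not tested. Other class I chains had 1 lower with library size only, and 4 higher and 1 lower with the 5 CPM filter. Chaperones and peptidases had 0 lower in DESeq2, 3 higher and 0 lower in glmTreat, and 12 higher once GC content and length were corrected for. Constitutive catalytic subunits had 0 higher and 0 lower, and class I regulators 3 lower, in glmTreat. Class II genes had 2 higher with no filter, 0 higher and 1 lower in DESeq2 and in glmTreat, and 1 lower in limma-voom and with the GC and length correction. Leaving out single libraries gave 0 to 2 lower for other class I chains, 0 to 2 lower for chaperones and peptidases, 0 to 1 higher and 0 to 2 lower for constitutive subunits, 0 to 1 higher and 1 to 2 lower for class II genes, and 0 to 1 lower for surface ligands. No paired analysis was possible because the labels give the groups no shared replicate numbers. Depth limits the scarce genes: HLA-F rested on 44 counts in NC-1.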

Other observations

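Of 10 tested inhibitory and costimulatory surface ligands, proteins that immune cells read beside class I, 9 rose and 0 fell in edgeR. Over all tested genes 23.5% were called higher and 22.8% lower. In DESeq2 and limma-voom 0 of the list were called lower, and 1 was lower at an unadjusted edgeR p under 0.05. The list's median was 0.65 on the log2 scale. CD274 (PD-L1), the ligand of the T-cell checkpoint receptor PD-1, had 51 and 71 counts in Knockdown-670 and Knockdown-732, against 21 and 16 in NC-1 and NC-2, a 3.50-fold rise (edgeR adjusted p = 6.76e-05). ICAM1, the adhesion ligand of the integrin LFA-1, had 277 and 265 CPM in the knockdown, against 126 and 128 CPM in the controls. CD276 rose by 0.74 and PVRL2 by 0.58 on the log2 scale. CD58, the ligand of CD2, did not pass, at -0.45 on the log2 scale (edgeR adjusted p = 0.0864); without NC-2 and without Knockdown-732 there was 1 lower member.

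Of 14 tested genes of class I endocytosis and degradation, 7 rose and 1 fell, against 23.5% higher and 22.8% lower over all tested genes, and the list's median was 0.22 on the log2 scale. SYVN1, a ubiquitin ligase of endoplasmic reticulum degradation, had 115 and 116 CPM in Knockdown-670 and Knockdown-732, against 61.2 and 63.6 CPM in NC-1 and NC-2. The membrane ubiquitin ligases MARCH9 and MARCH4 rose by 0.98 and 0.94 on the log2 scale, and UBE2J2, a ubiquitin-conjugating enzyme, fell by 0.59. HLA-H, a class I pseudogene close in sequence to the classical chains, had 237 and 107 counts in Knockdown-670 and Knockdown-732, against 56 and 72 in NC-1 and NC-2, and did not pass (edgeR adjusted p = 0.135).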
